A study of Mus musculus with 4 samples.

Results

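The 10 genes described here encode proteins that carry, take up or release lipids: the apolipoproteins Apoe, Apod and Apoc1, the fatty acid-binding proteins Fabp3, Fabp4, Fabp5 and Fabp7, lipoprotein lipase Lpl, the fatty acid receptor Cd36 and the lipid exporter Abca1. They were taken as every probe set of the array whose single gene symbol equals one of these names, which gave 21 of 45037 probe sets and 10 of 18193 genes. The genes were selected on the Wnt3A minus control differences of these same arrays, where Apoe and Fabp7 were among the most strongly lower genes, so their differences are a description and carry no test.

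Expression was measured in mammary cells of virgin CD1 female mice aged 8 to 12 weeks, sorted as Lin-, CD24+ and CD29hi, which takes basal cells and among them the mammary stem cells. They formed colonies in growth factor-reduced Matrigel, a gel of basement membrane proteins. Colonies of passage 2, grown for 6 to 7 days, gave the RNA. The Wnt3A group (2 arrays) received 200 ng/ml purified Wnt3A, a secreted activator of canonical Wnt signalling, and the control group (2 arrays) its vehicle, CHAPS in PBS. Both groups shared a serum-free medium with insulin, transferrin, selenium and 50 ng/ml EGF. Whether the 2 arrays of a group stand for separate mice or separate cultures is not stated in the labels, so spreads and standard errors (SE) cover these samples only and may be technical.

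Apolipoproteins make lipids soluble outside the cell, and receptors on the cell surface take up particles that carry Apoe. Lpl frees fatty acids from lipoproteins, Cd36 helps them across the membrane, and fatty acid-binding proteins carry them in the cytoplasm to enzymes, membranes and the nucleus. Abca1 moves cholesterol and phospholipid out of the cell onto apolipoproteins. In the mammary gland Lpl, Cd36 and Fabp3 are known from milk fat production, and Fabp4 and Lpl also mark the surrounding fat cells.

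Promoter sequence is shown for the pair of genes whose differences were largest. RefSeq promoters of GRCm38.p6 were matched by symbol for 6 of the 10 genes (Apoe, Apod, Fabp3, Fabp7, Cd36 and Abca1), and Apoe had 3 listed starts. In the 250 bases before the start, the word bound by TCF/LEF factors, the DNA-binding partners of beta-catenin in canonical Wnt signalling, was searched as AACAAAG or ATCAAAG or TACAAAG or TTCAAAG, and the core of nuclear receptor sites as AGGTCA, each on both strands. Capitals mark the matches, which do not overlap. The windows are chr7:19699189-19699438 on the minus strand for Apoe and chr10:57784673-57784922 on the plus strand for Fabp7, each written 5′ to 3′ along the gene.
Apoe: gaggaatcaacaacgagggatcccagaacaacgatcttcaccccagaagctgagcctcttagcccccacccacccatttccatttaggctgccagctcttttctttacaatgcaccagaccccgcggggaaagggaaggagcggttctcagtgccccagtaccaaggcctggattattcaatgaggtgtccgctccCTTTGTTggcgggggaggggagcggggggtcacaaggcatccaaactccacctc
Fabp7: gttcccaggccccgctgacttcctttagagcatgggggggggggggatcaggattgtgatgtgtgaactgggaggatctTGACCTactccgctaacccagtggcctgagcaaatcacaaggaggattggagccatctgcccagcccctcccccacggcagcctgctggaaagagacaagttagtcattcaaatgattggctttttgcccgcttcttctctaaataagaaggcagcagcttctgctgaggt
The Apoe window held 1 TCF/LEF word, 54 to 48 bases before the start on the opposite strand, and the other Apoe starts held none. The Fabp7 window held 1 AGGTCA core, 171 to 166 bases before the start on the opposite strand, and no TCF/LEF word. Of the other 4 genes with a promoter, Cd36 held 2 TCF/LEF words and 1 AGGTCA core, and Apod, Fabp3 and Abca1 held neither. For comparison, 14.8% of all 32851 listed promoters held a TCF/LEF word and 14.0% an AGGTCA core. A match describes the letters of the window and is no evidence of binding.

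The arrays set Wnt3A-treated colonies against vehicle-treated ones. Apoe, Apoc1 and Fabp7 were lower with Wnt3A by 1.57 to 2.34 log2 units, 1 Abca1 probe set was lower by 0.91, and both Fabp5 probe sets were higher by 0.46 and 0.85. Apod, Fabp3, Lpl, Cd36, Fabp4 and the other Abca1 probe sets differed by 0.46 or less in either direction. In the deposited table each value is a log2 distance from the median of its own probe set, so it compares the 4 arrays and carries no level. A rough level band was read from the storage step of the numbers: upper (lowest array at log2 8 or above), middle (log2 4 to 8) or lower (below log2 4). It places a probe set's signal and does not show whether a gene is expressed. Fewer cells that express a gene and less RNA per cell cannot be told apart in such colony RNA.

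limma called 0 of 45037 probe sets at an adjusted p under 0.05 (0.0%), and the smallest adjusted p was 0.51. At an unadjusted p under 0.05 it gave 2801 probe sets (6.22%), where 2252 would be reached with no difference at all. Both Wnt3A arrays lay below both controls for 4 of the 21 lipid carrier probe sets, against 16.3% of all probe sets, and above both controls for 4, against 17.4%. For 13 the groups overlapped, and 33.7% of all probe sets separated one way or the other. Lower by at least 1 log2 unit with separated arrays were 3 of the 21, against 0.617% of all probe sets, and 0 were higher by as much, against 0.755%. The choice of genes used this contrast, so nothing is read from these counts. The median over the 21 probe sets was 0.03 log2 units, beside 0.01 over all.

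**Figure D1:**
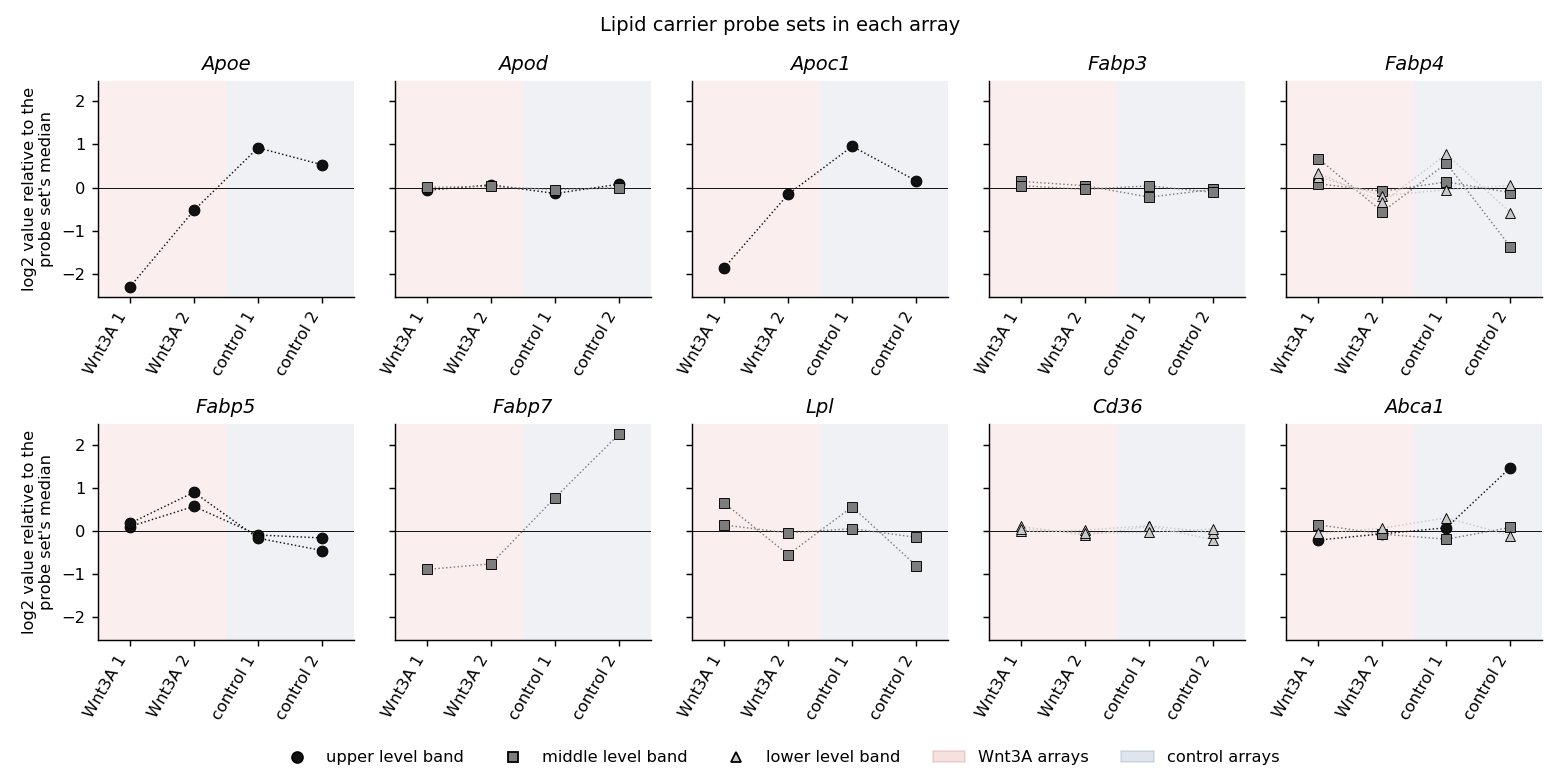
Each panel plots 1 gene: the log2 value relative to the probe set's median (vertical axis) in the 2 Wnt3A and the 2 control arrays (horizontal axis), with a point for each probe set and array, shaped by level band and joined by dotted lines to follow a probe set. Apoe and Apoc1 are lowest in Wnt3A 1 (-2.31 and -1.86), Fabp7 is highest in control 2 (2.24), and the 3 Cd36 probe sets stay between -0.21 and 0.12.

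Apoe, the main apolipoprotein that cells outside the liver secrete to carry cholesterol, was read by 1 probe set in the upper band. Its values were -2.31 and -0.53 in the Wnt3A arrays, against 0.92 and 0.53 in the controls. All Wnt3A values lay below all control values, with 1.06 log2 units between the nearest arrays of the groups, and Wnt3A 1 was far the lowest. The difference was -2.14 ± 0.63 log2 units (SE, n = 2 each), a 4.42-fold lower signal with Wnt3A. Without Wnt3A 1 it was -1.25, and without Wnt3A 2 it was -3.03.

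Apoc1, a small apolipoprotein that rides on the same particles and is known to inhibit lipases, lies next to Apoe on chromosome 7 (GRCm38.p6 annotation). Its single probe set, in the upper band, read -1.86 and -0.16 in the Wnt3A arrays, against 0.96 and 0.16 in the controls. The groups did not overlap, but Wnt3A 2 and control 2 lay only 0.31 apart. The difference was -1.57 ± 0.65 log2 units, a 2.96-fold lower signal. It was -0.71 without Wnt3A 1 and -2.42 without Wnt3A 2.

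The array values of Apoc1 were close to those of Apoe throughout. After each gene's mean over the 4 arrays was taken off, Apoc1 was the gene ranked 2 of 18192 by Euclidean distance to Apoe, at 0.65 log2 units over 4 arrays. The measure rests on 4 arrays that all genes share, so the rank is a description. Clca3a2 was nearer (0.59), and Krt15 (0.81), Gas1 (0.92), Foxa1 (0.96) and 2610528A11Rik (1.06) followed. Krt15 is a basal keratin, Gas1 a membrane protein known for growth arrest and Foxa1 a partner of the oestrogen receptor in luminal cells. Fabp7 ranked 158 and Abca1 ranked 810 by the same measure.

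The other genes around Apoe and Apoc1 did not share these values. Apoc4 and Apoc2, the apolipoprotein genes next to Apoc1, differed by -0.13 ± 0.15 and -0.19 ± 0.21 log2 units. Apoc4 read 0.03 and -0.14 in the Wnt3A arrays, against 0.17 and -0.03 in the controls, and Apoc2, in the lower band, read 0.05 and -0.05, against 0.44 and -0.06. The groups overlapped for each gene. On the other side of Apoe, the mitochondrial import gene Tomm40 differed by 0.42 ± 0.40, the adhesion gene Nectin2 by 0.20 ± 0.44 and the laminin-binding gene Bcam by -0.13 ± 0.18. Further out, Clptm1 differed by 0.17 ± 0.30 and the NF-kappaB subunit gene Relb by 0.55 ± 0.29. Of the 8 listed neighbours other than Apoe, Apoc1 was the only one whose arrays separated by group in either direction. Of all genes 35.3% separated one way or the other, and 18.0% lay below both controls as Apoc1 did.

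**Figure D2:**
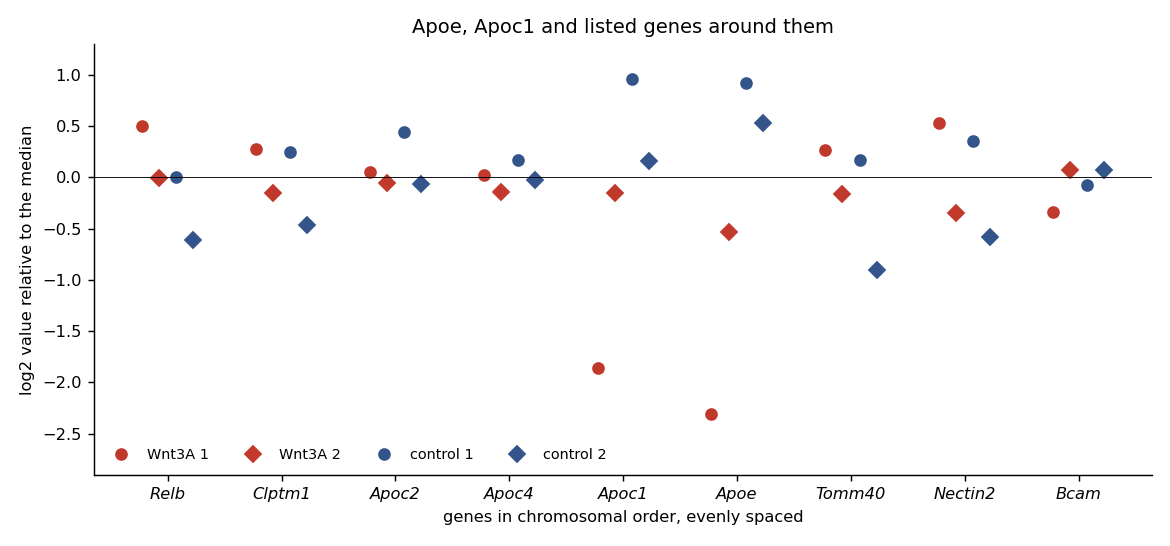
Log2 value relative to the median (vertical axis) in each array for Apoe, Apoc1 and 7 listed genes around them, placed in chromosomal order at even spacing (horizontal axis); red marks are Wnt3A arrays, blue marks controls, circles number 1 and diamonds number 2. Apoe and Apoc1 have a Wnt3A 1 value of -2.31 and -1.86, and no other gene here has a Wnt3A 1 value below -0.34.

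Apod, a lipocalin that binds arachidonic acid and steroid hormones and is unrelated in fold to Apoe, showed no such difference. Its upper band probe set read -0.06 and 0.06 in the Wnt3A arrays, against -0.14 and 0.08 in the controls, and differed by 0.03 ± 0.14 log2 units. Its middle band probe set differed by 0.04 ± 0.12, with the groups separated by only 0.01. The 3 apolipoprotein genes thus gave unlike values, -2.14, -1.57 and 0.03.

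Fabp7, the brain-type fatty acid-binding protein known from radial glia, had the largest difference of the 10 genes. Its single probe set, in the middle band, read -0.90 and -0.77 in the Wnt3A arrays, against 0.77 and 2.24 in the controls. The Wnt3A arrays were nearly equal, control 2 was well above control 1, and 1.53 log2 units lay between the nearest arrays of the groups. The difference was -2.34 ± 0.52 log2 units, a 5.05-fold lower signal, and it was -1.60 without control 2 and -3.08 without control 1. By rank it was 13 from the lowest of 45037 probe sets, where Apoe was 21 and Apoc1 was 82.

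The genes nearest to Fabp7 by array values were Cdo1 (0.07 log2 units away), Rflna (0.42), Matn4 (0.48), Thsd7a (0.48) and Cxcl10 (0.49). Cdo1, which encodes the enzyme that starts cysteine breakdown, read -0.83 and -0.76 in the Wnt3A arrays, against 0.76 and 2.31 in the controls, almost the same 4 values as Fabp7. Cxcl10 is a chemokine of the interferon response. Of the lipid carriers, Abca1 was nearest to Fabp7 (rank 61 of 18192), and control 2 was its highest array too.

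**Figure D3:**
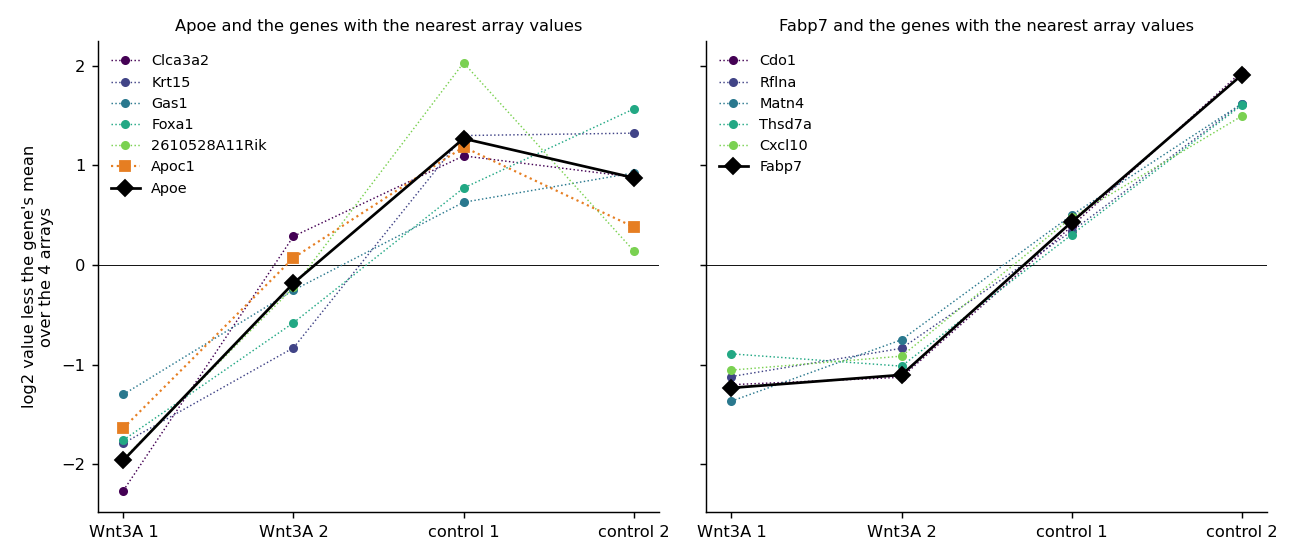
Log2 value less the gene's mean over the 4 arrays (vertical axis) in each array (horizontal axis) for Apoe (left) and Fabp7 (right, black diamonds) with the 5 nearest other genes and, beside Apoe, Apoc1; lines only join the points of a gene. The Apoe set is lowest in Wnt3A 1, and the Fabp7 set is highest in control 2.

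Fabp5, the epidermal fatty acid-binding protein of keratinocytes, went the other way from Fabp7. One upper band probe set read 0.17 and 0.89 in the Wnt3A arrays, against -0.17 and -0.46 in the controls. The other upper band probe set read 0.10 and 0.56, against -0.10 and -0.17. Both probe sets separated the groups and both were highest in Wnt3A 2. The differences were 0.85 ± 0.29 and 0.46 ± 0.20 log2 units, 1.80-fold and 1.38-fold higher with Wnt3A, and without Wnt3A 2 they were 0.49 and 0.23. Copies of the gene such as Fabp5l2 may share signal with these probes, so the values cannot be assigned to Fabp5 alone with certainty.

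Fabp4, the fatty acid-binding protein of fat cells, macrophages and capillary endothelium, did not separate the groups in any of its 4 probe sets. The middle band probe set with the widest range read 0.67 and -0.56 in the Wnt3A arrays, against 0.56 and -1.37 in the controls. The arrays numbered 1 were the high ones in both groups. The difference was 0.46 ± 0.79 log2 units, -0.50 without control 2 and 1.43 without control 1, so its sign depended on the array left out. Within either number Wnt3A lay above control, by 0.11 for number 1 and 0.81 for number 2. A lower band probe set read 0.34 and -0.34 with Wnt3A, against 0.77 and -0.58 in the controls, and differed by -0.10 ± 0.53. The remaining probe sets differed by -0.01 ± 0.16 and 0.03 ± 0.19.

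Fabp3, the heart and muscle form that is also abundant in lactating mammary gland, differed little. One middle band probe set read 0.14 and 0.04 in the Wnt3A arrays, against -0.22 and -0.04 in the controls, and differed by 0.22 ± 0.14 log2 units with the groups 0.09 apart. The other differed by 0.04 ± 0.13 with overlapping groups.

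Lpl showed the same split by array number as Fabp4. Its first middle band probe set read 0.65 and -0.55 in the Wnt3A arrays, against 0.55 and -0.81 in the controls, a difference of 0.17 ± 0.63 log2 units. The second, also in the middle band, read 0.13 and -0.05, against 0.05 and -0.15, a difference of 0.09 ± 0.15. In both probe sets the 2 arrays numbered 1 lay above the 2 numbered 2, and Wnt3A lay above control within either number. Without control 2 the first difference was -0.51 and without control 1 it was 0.85. Both arrays numbered 1 lay above both numbered 2 for 7 of the 21 lipid carrier probe sets and for 28.3% of all probe sets. They lay below both numbered 2 for 1 of the 21 and for 17.0% of all. By group, 33.7% of all probe sets separated one way or the other, so a split by array number was no rarer than a split by Wnt3A.

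Cd36 was placed in the lower band by all 3 of its probe sets. They differed by 0.05 ± 0.17, -0.04 ± 0.13 and -0.01 ± 0.12 log2 units, with every array between -0.21 and 0.12 and the groups overlapping in each. At this signal a difference in Cd36 may not be measurable on the array.

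Abca1 was read unevenly by its 3 probe sets. The upper band probe set read -0.21 and -0.07 in the Wnt3A arrays, against 0.07 and 1.47 in the controls. The groups separated by 0.14, and control 2 alone stood high. The difference was -0.91 ± 0.49 log2 units, a 1.88-fold lower signal, and it was -0.21 without control 2 and -1.61 without control 1. The middle and lower band probe sets differed by 0.09 ± 0.17 and -0.09 ± 0.19 with overlapping groups, and neither was high in control 2 (0.08 and -0.11).

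**Figure D4:**
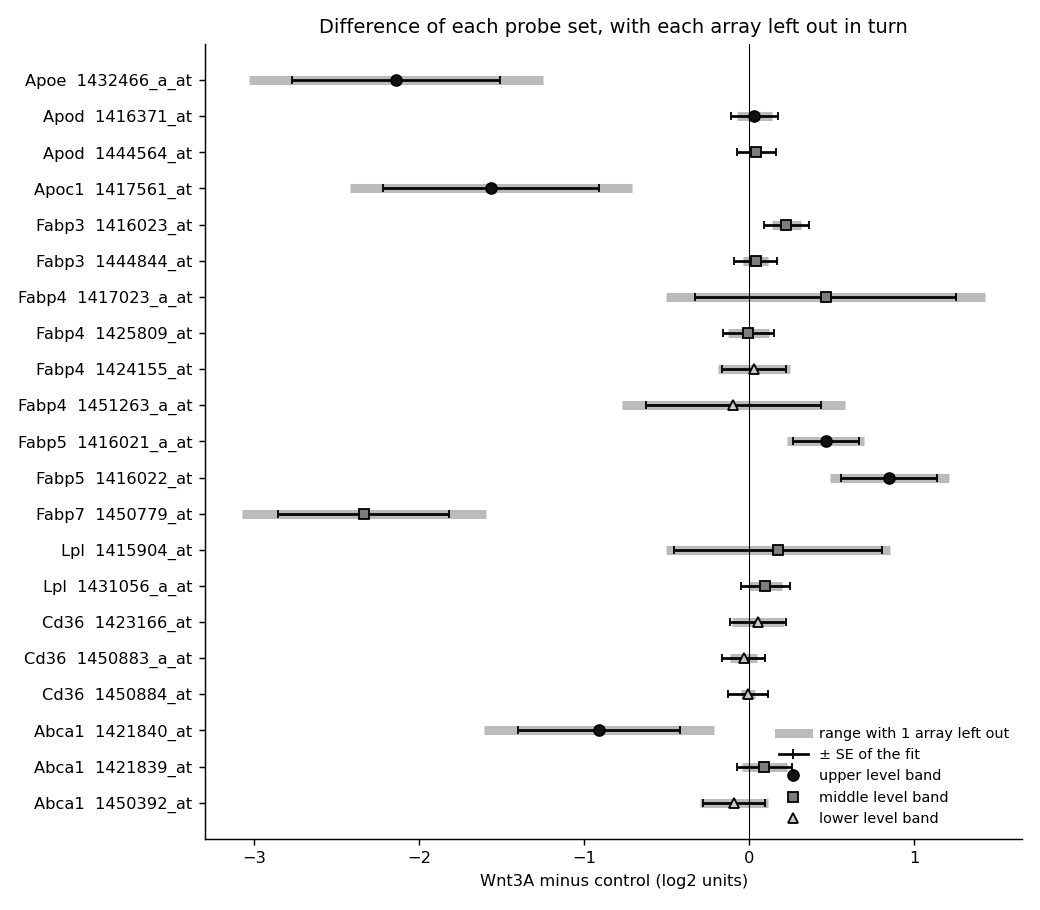
Wnt3A minus control in log2 units (horizontal axis) for each of the 21 probe sets (vertical axis), as a point with ± SE of the fit; the grey bar spans the values with each array left out in turn (n = 2 arrays a group). The grey bars of Apoe (-3.03 to -1.25), Apoc1 (-2.42 to -0.71) and Fabp7 (-3.08 to -1.60) stay below 0, those of Fabp5 stay above 0, and those of the first Fabp4 and Lpl probe sets cross it. Where both Wnt3A arrays lie on one side of both controls, leaving out 1 array cannot change the sign. For such probe sets, also the upper band one of Abca1 (-1.61 to -0.21), the bars show only how far the size moves.

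The pathway around the 10 genes was described with 11 lists of lipid-handling genes, 127 of whose 140 genes had values under a single symbol. Each gene was averaged over those of its probe sets that lay in its highest band. limma called 0 of the 127 at an adjusted p under 0.05 (0.0% of 18193 genes). Over all genes the smallest adjusted p was 0.24, and 1389 (7.63%) reached an unadjusted p under 0.05. Arrays separated higher for 25 genes (19.7%, against 17.2% of all genes) and lower for 20 (15.7%, against 18.0%). For 82 the groups overlapped, where 35.3% of all genes separated one way or the other, so the shares were near the background. By at least 1 log2 unit, with separated arrays, 5 of the 127 were higher and 1 lower. Of all 18193 genes 180 (0.989%) and 138 (0.759%) were. The higher count thus lay above the share of all genes. This was not tested, and the lists were chosen with earlier results of these data known. The list medians lay between -0.07 and 0.06 log2 units, where the median of all genes was 0.00. With 1 array left out they ranged from -0.23 (nuclear receptors and partners, without control 2) to 0.22 (lipoprotein receptors, without Wnt3A 2), and several changed sign.

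Among the other apolipoproteins (13 measured, 2 separated higher and 0 lower, median 0.01), clusterin, Clu, stood apart. It read 0.84 and 0.27 in the Wnt3A arrays, against -1.31 and -0.27 in the controls, a difference of 1.34 ± 0.41. Clu, a secreted chaperone also named apolipoprotein J, was thus higher with Wnt3A where Apoe and Apoc1 were lower. It was 0.82 without control 1. The next largest in the list was Apoc2. Among the other intracellular lipid-binding proteins, the family of the Fabp genes (10 measured, 3 separated higher and 1 lower, median 0.04), the retinoic acid carriers differed in opposite directions. Crabp1 read -0.32 and -0.42 with Wnt3A, against 0.32 and 1.49 in the controls (-1.27 ± 0.40, and -0.69 without control 2), and Crabp2 read 0.49 and 0.46, against -0.46 and -0.92 (1.16 ± 0.19). Among the other lipocalins, the family of Apod (10 measured, 1 separated higher and 4 lower, median -0.07), Lcn2, which binds bacterial iron carriers, differed by -0.90 ± 0.80 and by 0.17 without Wnt3A 2, and C8g by -0.49 ± 0.24 (-0.27 without control 2).

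Receptors for Apoe-bearing and modified lipoproteins (14 measured, 4 separated higher and 2 lower, median 0.06) were mixed. The very low density lipoprotein receptor gene Vldlr read -0.34 and -0.13 in the Wnt3A arrays, against 1.09 and 0.13 in the controls, a difference of -0.84 ± 0.34, which was -0.36 without control 1. Its middle band probe sets differed by -1.17 to -0.45. The scavenger receptor genes Stab1 (1.09 ± 0.28) and Olr1 (0.88 ± 0.23, and 0.58 without Wnt3A 1) lay above both controls in both Wnt3A arrays. Lrp1, a broad Apoe receptor, differed by 0.19 ± 0.27 (-0.17 without control 1), with a second probe set at 1.08, and Scarb1, the high density lipoprotein receptor, by 0.03 ± 0.29.

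Among lipases and their partners (13 measured, 2 separated higher and 1 lower, median -0.06), the lysosomal acid lipase gene Lipa read -0.22 and -0.55 in the Wnt3A arrays, against 0.32 and 0.21 in the controls, a difference of -0.65 ± 0.16. Its probe sets ranged from -1.04 to -0.33. The monoglyceride lipase gene Mgll differed by -0.48 ± 0.33, and by -0.07 without Wnt3A 2. Angptl4, a secreted inhibitor of Lpl, differed by -0.07 ± 0.53, and its second probe set by -0.93. In fatty acid transport and activation (12 measured, 3 separated higher and 1 lower, median -0.05), the acyl-CoA synthetase genes Acsbg1 (1.25 ± 0.28) and Acsl5 (0.62 ± 0.16) had the largest differences. In sterol efflux and transfer (13 measured, 2 separated higher and 2 lower, median 0.00), the Abca1 relative Abca7 differed by 0.56 ± 0.14, the phospholipid transfer gene Pltp by -0.47 ± 0.22 (-0.23 without control 1) and the exporter gene Abcg1 by 0.28 ± 0.24 (-0.03 without control 1). In lipid droplet and storage genes (13 measured, 3 separated each way, median 0.01), the droplet coat genes Plin2 (0.40 ± 0.22) and Plin3 (-0.31 ± 0.19) had the largest differences, which were 0.20 and -0.10 without Wnt3A 1.

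The nuclear receptors that control many lipid carriers were also examined. LXR, which senses oxysterols, acts on Abca1, Abcg1 and Apoe, and PPAR factors, which sense fatty acids, act on Fabp4, Lpl and Cd36. Among these factors and their partners (13 measured, 1 separated higher and 3 lower, median -0.06), the coactivator gene Ppargc1a read -0.53 and -0.18 in the Wnt3A arrays, against 0.17 and 0.65 in the controls (-0.77 ± 0.23). Ppard differed by 0.44 ± 0.13 (probe sets at 0.11 and 0.77) and Srebf1 by -0.43 ± 0.19 (-0.23 without Wnt3A 1). Pparg (-0.14 ± 0.16) and the LXR gene Nr1h3 (-0.02 ± 0.21) overlapped between groups. The LXR response list (11 measured, 2 separated each way, median -0.02) had Pltp and Smpdl3a (-0.46 ± 0.51, and 0.18 without control 2) as its lowest genes and Abcg1 as its highest. The PPAR response list (13 measured, 3 separated each way, median 0.06) had Pdk4, a brake on glucose oxidation, at 1.42 ± 0.45 (0.91 without Wnt3A 1) and Cpt1a, which admits fatty acids to mitochondria, at -0.85 ± 0.28 (-0.47 without control 2).

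**Figure D5:**
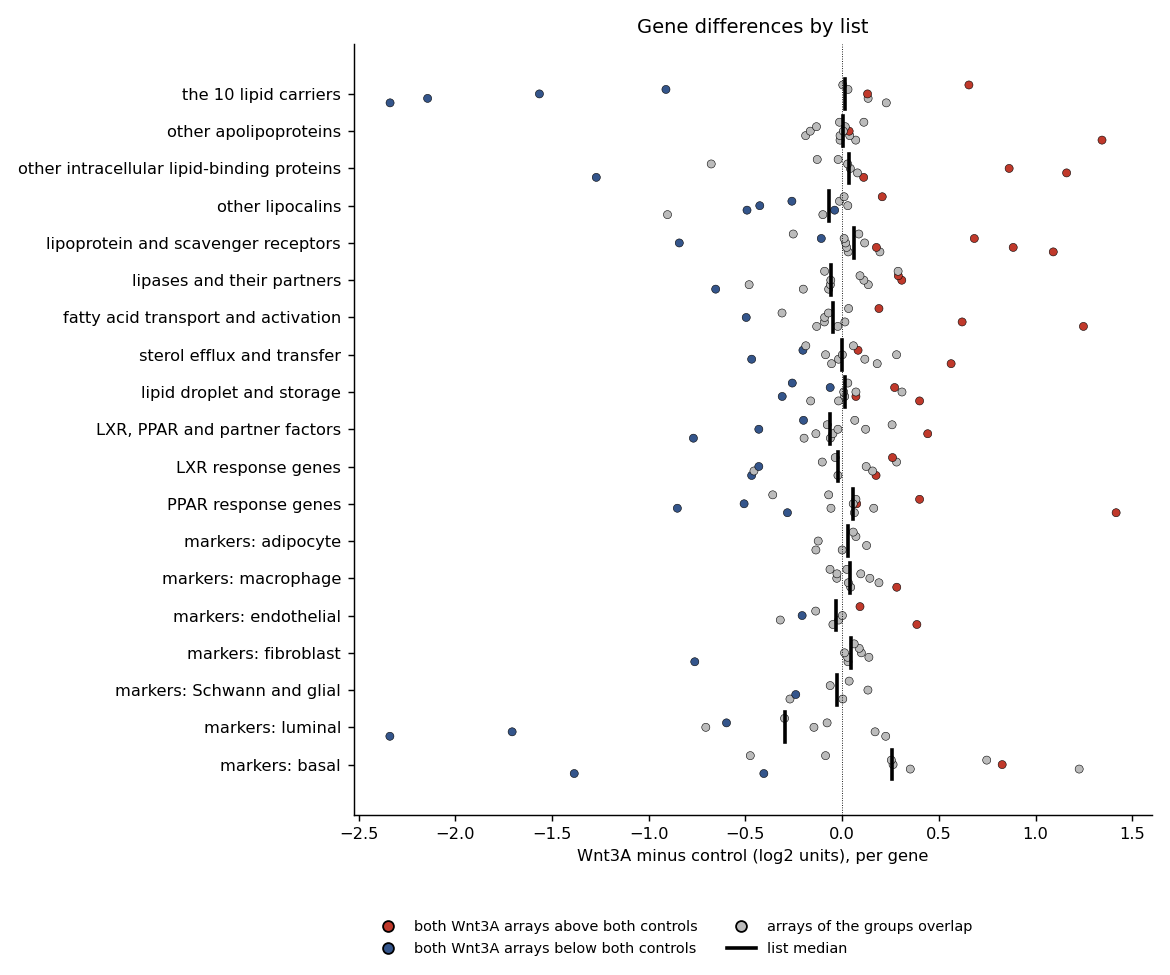
Wnt3A minus control in log2 units (horizontal axis), with a point for each gene, for the 10 lipid carriers, the 11 lipid lists and 7 lists of cell type markers (vertical axis); red and blue points are genes with both Wnt3A arrays above or below both controls, and black bars are list medians. The lipid list medians lie between -0.07 and 0.06 while single genes reach -1.27 and 1.42.

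Around Fabp4 and Fabp5 on chromosome 3, the listed genes differed by -0.54 to 0.65 log2 units. The Fabp relatives Fabp9 (0.04 ± 0.13), Pmp2 (0.08 ± 0.14) and Fabp12 (-0.13 ± 0.23) overlapped between groups, as did Snx16 (-0.06 ± 0.13). Both Wnt3A arrays lay below both controls for Impa1 (-0.23 ± 0.12) and Zfand1 (-0.54 ± 0.26, and -0.20 without control 2). They lay above both controls for Fabp5. Of the 8 genes 2 thus separated lower and 1 higher, beside 18.0% and 17.2% of all genes.

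Markers of cell types in which these lipid carriers are abundant were read in the same arrays. Values carry no level, so each list is given by its band and its median per array. Of 6 measured fat cell markers 0 separated the groups, where 35.3% of all genes did so one way or the other. Of these markers 1 lay in the upper band (Cidec), and Adipoq, which defines the type, was in the lower band. Their median was 0.02 and -0.02 in the Wnt3A arrays, against 0.06 and -0.06 in the controls, and the largest differences were those of Pparg and Retn (0.13 ± 0.21). Of 10 macrophage markers, Cd68 (0.28 ± 0.17) separated higher and 0 lower, beside 17.2% and 18.0% of all genes. The largest difference after that of Cd68 was that of Mrc1 (0.19 ± 0.18), which lay in the lower band. Of the 10, 1 lay in the upper band, 6 in the middle and 3 in the lower. The macrophage list median was 0.05 and -0.05 with Wnt3A, against 0.06 and -0.08 in the controls.

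For the endothelial, fibroblast and glial lists, too, the shares of all genes were 17.2% separated higher and 18.0% lower. Of 8 endothelial markers, 1 lay in the upper band, 4 in the middle and 3 in the lower. Of the 8, 2 separated higher and 1 lower. The largest differences were those of Tek (0.39 ± 0.14) and Emcn (-0.32 ± 0.28). Both genes lay in the lower band, where a difference may not be measurable. The endothelial list median was 0.04 and -0.04 with Wnt3A, against 0.09 and -0.04 in the controls. Of 8 fibroblast markers, 2 lay in the upper band, 5 in the middle and 1 in the lower. Of the 8, 0 separated higher and 1 lower, with Pdgfra at -0.76 ± 0.28 (its probe sets ranged from -1.76 to 0.02) and Dcn at 0.14 ± 0.15. Their median was 0.06 and -0.05 with Wnt3A, against 0.04 and -0.09 in the controls. Of 6 glial markers, 0 separated higher and 1 lower, with S100b at -0.27 ± 0.20 and Erbb3 at -0.24 ± 0.17. All 6 lay in the upper band, and their median was 0.23 and -0.23 with Wnt3A, against 0.14 and -0.06 in the controls.

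The basal genes Krt5, Krt14 and Trp63 and the luminal genes Krt8 and Krt18 all lay in the upper band, so the bands do not set the sorted basal type apart from luminal cells. Of 9 luminal markers, 0 separated higher and 3 lower, beside 17.2% and 18.0% of all genes, with Foxa1 at -2.34 ± 0.48 and Krt19 at -1.71 ± 0.79 (-0.83 without control 2 and -0.91 without Wnt3A 2). For 6 the groups overlapped. By the mean 7 were lower and 2 higher, Krt8 (0.23 ± 0.22) and Krt18 (0.17 ± 0.20). The median difference of the 9 was -0.30, and it was 0.02 without Wnt3A 2, -0.14 without control 2 and -0.57 without Wnt3A 1. Over the 6 in the upper band it was -0.11. Foxa1 read -1.85 and -0.68 in the Wnt3A arrays, against 0.68 and 1.47 in the controls, lowest in the same array as Apoe and highest in the same array as Fabp7. The luminal list median was 0.02 and -0.26 with Wnt3A, against 0.02 and 0.10 in the controls. Of 10 basal markers, 8 lay in the upper band and 2 in the middle. Of the 10, 1 separated higher and 2 lower, beside the same shares of all genes. Their median difference was 0.26, but -0.16 without control 1 and -0.08 without Wnt3A 2. The largest single differences were Oxtr at -1.39 ± 0.15 (probe sets at -2.60 and -0.17) and Cnn1 at 1.23 ± 1.13, which was -0.39 without control 1. The basal list median was -0.19 and 0.12 with Wnt3A, against -0.12 and 0.16 in the controls. The part of these markers in the lipid carrier differences was not tested.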

How the data were processed

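RNA was hybridised to single-colour Affymetrix mouse whole-genome arrays, 2 for Wnt3A and 2 for control. The authors deposited log2 values; the submitters' processing notes name RMA without a version. Every row's median over the 4 arrays was 0 in the deposited log2 table, so levels had been removed; no source used here describes that step. Array medians lay between -0.016 and 0.02.

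Of the 45037 probe sets other than the 64 array controls, GEO's platform annotation names 1 symbol for 34945, several for 932 and none for 9160. Single symbols were checked by Entrez identifier against RefSeq (34741 found, 0 changed). Level bands came from the finest binary step of each probe set's stored numbers, upper for 33.8%, middle for 47.2% and lower for 19.0%. The band call was tested on simulated data, where its errors placed probe sets too high.

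Differences are Wnt3A minus control from limma 3.58.1 in R 4.3.3 (lmFit, eBayes, two-sided, Benjamini-Hochberg over all features), with 2 residual and 2.3 prior degrees of freedom; the fit was tested on simulated data. An exact permutation test of 2 against 2 arrays cannot give a p below 0.33. The genes and lists were chosen with earlier results of these data known. All 10 genes with all probe sets are named, with the 2 largest absolute differences of each list, fixed pathway genes, every listed neighbour and the 5 genes nearest to Apoe and Fabp7. Alternatives were a block for replicate number, leaving out 1 array, quantile normalization, centring, band filters, robust eBayes and means over a gene's probe sets. Figures used matplotlib 3.10.9 under Python 3.11.15.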

Additional observations from a re-analysis of the deposited data

How the results depend on the processing

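No alternative called any probe set, lipid list gene or marker gene at an adjusted p under 0.05 in limma, whether by block, array left out, normalization, centring, band filter, robust fit or gene means. At an unadjusted p under 0.05 the count was 2801 probe sets, 4882 with the replicate block, 1139 of 15223 with the upper band only and 1389 of 18193 with genes as the unit. The median difference over the lipid carrier probe sets was 0.03, between -0.105 and 0.112 with 1 array left out (lowest without control 2) and -0.441 over the 6 in the upper band. The number of them below both controls was 4, or 3 of 6 in the upper band. The number above both was 4, or 3 with quantile normalization or with centring, and 2 of 6 in the upper band. With 1 array left out, 1 array is set against 2, and the groups separate more easily. The number below every remaining control was then between 4 and 9 (9 without control 2). The number above was between 4 and 13 (13 without control 1). Shares of all probe sets under these settings were not examined, so these counts are not comparable with the 4. All 209 recomputed differences of single lipid carriers stayed within the spread between replicates, which is wide with 2 arrays. Much of this was fixed in advance, so no stability is read from it. Leaving out 1 of 2 arrays cannot move a difference by more than this spread. The block, the robust fit and the band filters leave the difference of a probe set unchanged. Of 200 recomputed list medians 162 stayed within the spread between replicates and 38 did not. Among the 38 were sterol efflux (0.00) at 0.17 without control 1 and other apolipoproteins (0.01) at 0.71 in the upper band only. That value of 0.71 rests on the 2 genes of the list in the upper band, out of 13. Arrays of the same number deviated together (correlation over probe sets 0.526), but with 2 numbers this does not establish a pairing. Each number occurs once in each group, so the replicate block can change only the SE and not the difference. For Apoe (-2.14) the SE was 0.60 with the block and 0.63 without it. For Fabp7 (-2.34) it was 0.38 with the block and 0.52 without it. For the Fabp4 probe set with the widest range it was 0.22 with the block and 0.79 without. For the first Lpl probe set it was 0.11 with the block and 0.63 without. For Apoc1 it was larger with the block, 0.695 against 0.654. Signal near background limits Cd36 and the lower band probe sets of Fabp4 and Abca1.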
